A study of Rattus norvegicus with 6 samples.

Results

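SR proteins and heterogeneous nuclear ribonucleoproteins (hnRNPs) are the RNA-binding proteins that decide which exons of a pre-mRNA are kept. Their transcripts were followed in cultured rat nucleus pulposus cells, which fill the soft centre of the intervertebral disc. The genes were chosen by symbol and biotype alone: symbols beginning with Srsf and a digit or with Hnrnp, plus Tra2a, Tra2b, Ptbp1, Ptbp2 and Ptbp3, where the deposited table gives a protein-coding biotype. This gave 36 of the 32623 genes listed, of which 12 are SR proteins, 2 are the SR-like Tra2 genes and 22 are hnRNP or polypyrimidine tract binding (PTB) genes. Of the 36 genes, 35 had enough counts to be tested. Srsf8 had 0 counts in all 6 libraries, and the symbol Hnrnpa0 is not in the table.

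SR proteins bind exons through RNA recognition motifs and use an arginine-serine (RS) domain to recruit the spliceosome, so that they mostly promote inclusion of the exons they bind. Many hnRNPs work against them, coating pre-mRNA and silencing nearby splice sites, and several also act on export, stability and translation of mRNA. Both families are known to limit their own levels by splicing their transcripts into forms that nonsense-mediated decay removes. A count per gene, as used here, cannot separate such forms from the productive mRNA for any of these genes, annotated or not. The table annotates a nonsense-mediated decay transcript for Srsf3 and Ptbp1 alone among these genes.

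One group, shBmal1, had received lentivirus with a short hairpin RNA that targets the circadian clock gene Bmal1, and the other, shNC, lentivirus with a control hairpin, each for 72 hours and each with 3 libraries. Both groups were Sprague-Dawley cells: the donors were male, 4 weeks old, the discs lumbar, and the passage number 3 to 5. What drives the hairpin is not stated in the labels, nor whether replicate libraries were grown apart or taken from different rats. P-values here therefore reflect spread among these libraries, and that spread may be technical. The knocked-down gene, listed as Arntl, stood at 2.16, 4.24 and 2.07 CPM in shBmal1, against 27.4, 29.7 and 31.7 CPM in shNC. CPM here are counts per 1e+06, with library sizes scaled by trimmed mean of M-values (TMM). The log2 fold change of Arntl was −3.37 ± 0.26 (SE; adjusted p = 1.17e-05, edgeR).

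Total counts ran from 8773762 to 11679587 in shBmal1 and from 44043803 to 49783710 in shNC, so that depth and group cannot be told apart. The share of mitochondrial rRNA in all counts was 0.722 to 1.31% in shBmal1 and 0.033 to 0.0602% in shNC. Over all tested genes, 36.0% rose in shBmal1 and 35.3% fell, and the counts of markers below stand beside these shares. Of the nucleus pulposus and chondrocyte markers, 7 of 16 tested fell and 2 rose, with a summed level of 466 to 494 CPM in shBmal1 and 2896 to 3115 CPM in shNC; Tbxt and Shh, which define notochordal cells, were at 0 in every library. All 7 fibroblast and mesenchyme markers fell, and they summed to 12091 to 15059.7 CPM in shBmal1 and 89722 to 104012.5 CPM in shNC. Of 3 tested macrophage and leukocyte markers, Cd68 and Mrc1 rose and Cd14 fell: Cd68 averaged 2.89 CPM in shBmal1 and 0.407 CPM in shNC, Mrc1 had 23, 63 and 70 counts in shBmal1 and 0 in every shNC library, and Cd14 averaged 26.9 CPM in shBmal1 and 35.4 CPM in shNC. All 9 listed markers of that type summed to 34.7 to 38.2 CPM in shBmal1 and 32.4 to 43.0 CPM in shNC. All 3 tested endothelial markers rose, and the 6 listed summed to 7.78 to 11.2 CPM in shBmal1 and 0.425 to 1.31 CPM in shNC. Of 8 proliferation markers, 4 rose and 3 fell, with sums of 371 to 412 CPM in shBmal1 and 246 to 269.9 CPM in shNC. Skeletal muscle markers summed to 0 to 19.2 CPM in shBmal1 and 0.269 to 0.616 CPM in shNC, and erythroid markers to 0 to 0.331 CPM in shBmal1 and 0 to 0.594 CPM in shNC. In bulk RNA, fewer cells of a type and less RNA per cell cannot be told apart, and the part of these differences in the results that follow was not tested.

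Promoters are shown first, for genes that rose at least 2-fold and carry the palindromic E-box letters CACGTG. This is the sequence that the BMAL1 and CLOCK pair is known to bind. RefSeq promoters of the rat build GRCr8, reaching from 250 bases before to 50 bases after the annotated start, were found for 33 of the 36 genes. The letters CACGTG, which read the same on both strands, were in the promoter of 6 of the 33 genes (18.2%), namely Hnrnpa3, Hnrnpm, Hnrnpdl, Hnrnpd, Srsf3 and Hnrnph2. They were in 6.42% of all 33469 promoters of the same length, and in 9.75% of the 9852 tested genes that could be matched to a promoter by symbol. Ptbp2 and Tra2b, which had the largest rises, are not among the 6 genes. Hnrnpc, Srsf11, Hnrnpa2b1 and Srsf7, which also rose at least 2-fold, are not among them either. A gene without a promoter here could not be scored. The 3 genes without one were all called higher, since a promoter was found for 23 of the 26 risen genes. They are not named here. Any of Ptbp2, Tra2b, Hnrnpc, Srsf11, Hnrnpa2b1 and Srsf7 may therefore be unscored rather than without the letters. The 4 genes with the letters whose transcript rose at least 2-fold are printed here from 5′ to 3′ on the strand of the gene, with CACGTG in capitals. They lie at chr14:9861466-9861765, chr14:9919507-9919806, chr3:80985684-80985983 and chr20:7093335-7093634 for Hnrnpdl, Hnrnpd, Hnrnpa3 and Srsf3, all on the forward strand.

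Hnrnpdl: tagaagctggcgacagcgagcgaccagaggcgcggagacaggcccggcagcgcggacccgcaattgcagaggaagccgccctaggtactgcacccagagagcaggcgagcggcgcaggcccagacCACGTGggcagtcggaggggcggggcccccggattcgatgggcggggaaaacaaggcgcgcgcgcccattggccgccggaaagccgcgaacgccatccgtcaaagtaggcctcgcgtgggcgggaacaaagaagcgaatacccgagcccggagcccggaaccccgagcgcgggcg

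Hnrnpd: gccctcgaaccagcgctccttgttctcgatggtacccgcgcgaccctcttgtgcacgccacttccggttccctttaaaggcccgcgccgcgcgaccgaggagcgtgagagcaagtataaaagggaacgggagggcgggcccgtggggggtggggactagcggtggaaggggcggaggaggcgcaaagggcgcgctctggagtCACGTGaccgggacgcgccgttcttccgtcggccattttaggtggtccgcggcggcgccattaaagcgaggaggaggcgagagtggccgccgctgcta

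Hnrnpa3: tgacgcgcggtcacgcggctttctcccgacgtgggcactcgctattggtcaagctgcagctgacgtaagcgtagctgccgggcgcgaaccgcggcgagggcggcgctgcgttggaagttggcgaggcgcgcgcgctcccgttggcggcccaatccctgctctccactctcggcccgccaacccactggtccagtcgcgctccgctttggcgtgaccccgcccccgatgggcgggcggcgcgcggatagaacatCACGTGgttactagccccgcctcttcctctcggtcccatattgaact

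Srsf3: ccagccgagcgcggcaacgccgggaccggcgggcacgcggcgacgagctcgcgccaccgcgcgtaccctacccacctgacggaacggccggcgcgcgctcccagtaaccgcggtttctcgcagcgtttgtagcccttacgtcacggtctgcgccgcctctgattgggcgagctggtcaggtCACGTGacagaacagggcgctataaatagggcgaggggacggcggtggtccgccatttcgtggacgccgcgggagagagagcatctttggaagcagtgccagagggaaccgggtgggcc

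The first base of the motif lay 125 bases before the start in Hnrnpdl, 48 before it in Hnrnpd, 69 before it in Srsf3 and 3 after it in Hnrnpa3. The promoter of Hnrnph2 held the letters at 2 places and that of Hnrnpm at 1 place. All 6 genes with the letters rose in shBmal1, and they were 6 of the 23 risen genes with a promoter (26.1%). Most of the set rose with or without the letters, 26 of the 35 tested genes (74.3%). The letters were in 0 of the 5 genes that fell and 0 of the 4 that did not pass. Whether the letters go with a rise was not tested. Among all tested genes with a promoter, the letters were in 11.8% of those that rose, 8.79% of those that fell and 8.57% of those that did not pass. A match describes the letters in this window and is not evidence of binding.

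The comparison of shBmal1 with shNC asks how these splicing regulators differ when Bmal1 is knocked down. Most of their transcripts were higher in shBmal1. Of 35 tested genes, 26 were called higher and 5 lower, while 4 missed the threshold (adjusted p under 0.05 in edgeR's quasi-likelihood test, adjusted over all 14342 genes tested). Rises thus made up 74.3% of these genes, against 36.0% of all genes, and falls 14.3%, against 35.3% of all genes; 71.3% of all genes passed in either direction. Without shBmal1 replicate 2, 25 rose and 8 fell. With the shNC counts thinned to the depth of shBmal1, 26 rose and 5 fell. The CPM of the groups did not overlap for 33 of the 35 genes, 26 of them higher and 7 lower in shBmal1; over all genes 38.2% were higher and 39.1% lower without overlap. The median log2 fold change was 0.65, against −0.01 over all tested genes. This lies inside the middle range of the transcriptome, whose lower and upper quartiles were −0.97 and 1.16. Changes of at least 2-fold were found in 10 genes upward, where 25.4% of all genes did so, and in 1 gene downward, where 21.9% of all genes did so.

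Scaling changed the size of the rises, the number of genes that passed, and the direction of some summed role groups given below. When the authors' FPKM (fragments scaled to gene length and library size) were rescaled to TPM, which forces every library to the same total, the median of all genes shifted to −0.35 and that of the 35 genes to 0.27. On that scale 20 of the 35 rose and 9 fell (limma), against 28.3% and 46.6% of all genes, or 74.9% in either direction. Of the risen and fallen genes together, 83.9% rose on the TMM scale and 69.0% on the TPM scale, against 50.5% and 37.8% over all genes. Tra2a, Srsf4, Hnrnpa1, Hnrnph3, Hnrnpll and Hnrnpm no longer passed, with TPM-based log2 fold changes of 0.15, 0.15, 0.01, 0.20, 0.16 and 0.09. Srsf5, Srsf6, Srsf12 and Hnrnpul2 passed as lower, at −0.56, −0.51, −1.36 and −0.54. No gene of the 35 changed sign.

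**Figure D1:**
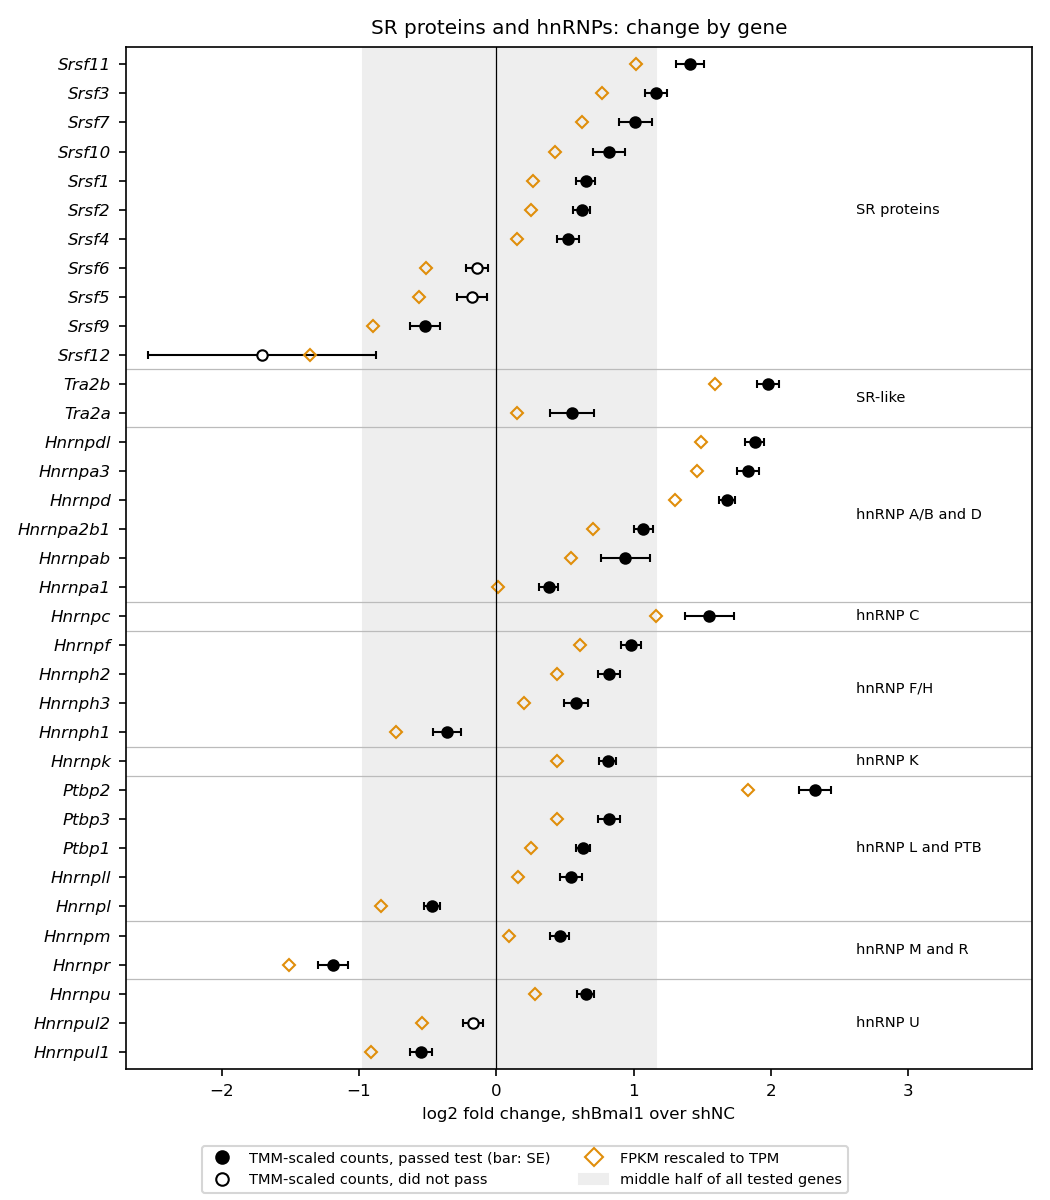
Log2 fold change of each tested SR protein and hnRNP gene, shBmal1 over shNC, by role group: circles give TMM-scaled counts with their SE (filled where the test was passed), diamonds the same on the TPM scale, and the grey band the quartiles of all tested genes (−0.97 to 1.16). Of 35 genes, 26 filled circles lie right of 0 and 5 left of it, and the diamonds lie left of the circles except for Srsf12.

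Among the SR proteins, 7 of the 11 with enough counts were called higher, 1 lower and 3 neither, with a median log2 fold change of 0.62. Srsf11, which encodes an RS-domain protein with a single RNA recognition motif, rose most. It stood at 178.5, 219.6 and 221.5 CPM in shBmal1, against 73.4, 78.3 and 81.7 CPM in shNC, with no overlap between the groups (log2 fold change 1.41 ± 0.10, SE; adjusted p = 5.54e-06, edgeR). Srsf3, the smallest classical SR protein and an adaptor for mRNA export, had 241, 246 and 284 CPM in shBmal1 and 111.5, 114 and 119 CPM in shNC. Its log2 fold change was 1.16 ± 0.08 (adjusted p = 4.97e-06, edgeR), and every shBmal1 library lay above every shNC library. Srsf7, which shares with Srsf3 a role in export and in the choice of polyadenylation site, had 55.0, 71.4 and 73.3 CPM in shBmal1 against 34.7, 31.4 and 33.0 CPM in shNC. Srsf7 thus rose 2.02-fold (1.01 ± 0.12; adjusted p = 0.000126, edgeR), with the lowest shBmal1 library still above all 3 controls.

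Srsf2, which encodes SC35, the common marker protein of nuclear speckles, had the highest FPKM of the SR proteins averaged over all 6 libraries, although Srsf5 was higher than Srsf2 in shNC (66.7 FPKM for Srsf5 and 59.3 for Srsf2). It measured 185, 197 and 183 CPM in shBmal1, against 118, 126 and 123 CPM in shNC, a rise of 0.62 ± 0.06 on the log2 scale (adjusted p = 4.56e-05, edgeR). The other rises were 0.82 for Srsf10, a splicing repressor when dephosphorylated, 0.65 for Srsf1, the first SR protein described, and 0.52 for Srsf4. Srsf9 was the SR protein that fell, with 39.8, 48.4 and 53.8 CPM in shBmal1 against 69.9, 69.9 and 64.4 CPM in shNC (log2 fold change −0.52 ± 0.11; adjusted p = 0.00376, edgeR).

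For Srsf5 and Srsf6 the groups overlapped. Srsf5 had 64.9, 87.7 and 73.8 CPM in shBmal1 and 79.5, 87.6 and 89.5 CPM in shNC, and the 95% confidence interval of its log2 fold change was −0.44 to 0.08. Srsf6 had 97.8, 116 and 105 CPM in shBmal1 and 113, 123 and 116 CPM in shNC, with an interval of −0.32 to 0.04. Both intervals leave out a change of 2-fold in either direction. Without shBmal1 replicate 2, which held the highest shBmal1 value of each, both passed as lower (adjusted p = 0.0183 for Srsf5 and 0.0264 for Srsf6, edgeR). Srsf12 was scarce, at 0, 2.37 and 0.911 CPM in shBmal1 and 3.28, 4.16 and 3.61 CPM in shNC. Its interval of −3.63 to 0.22 covers a large fall as well as no change, and it passed as lower without shBmal1 replicate 1 (adjusted p = 0.0477) or replicate 2 (0.0219). At these depths 3 counts correspond to 0.245 to 0.323 CPM in a shBmal1 library and 0.0637 to 0.0712 CPM in a shNC library.

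The Tra2 genes encode SR-like activators that bind GAA-rich exonic enhancers. Tra2b had the largest rise of the set after Ptbp2, at 288, 343 and 329 CPM in shBmal1, against 82.2, 81.0 and 80.2 CPM in shNC. This is a 3.94-fold rise (log2 fold change 1.98 ± 0.08; adjusted p = 3.21e-07, edgeR). Its paralog Tra2a had 47.5, 68.5 and 75.3 CPM in shBmal1 and 45.7, 43.1 and 42.0 CPM in shNC, so that shBmal1 replicate 1 lay close to the controls. Tra2a rose by 0.55 ± 0.16 (adjusted p = 0.0136, edgeR), and this call was lost without shBmal1 replicate 2 (0.0602) or replicate 3 (0.0637).

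**Figure D2:**
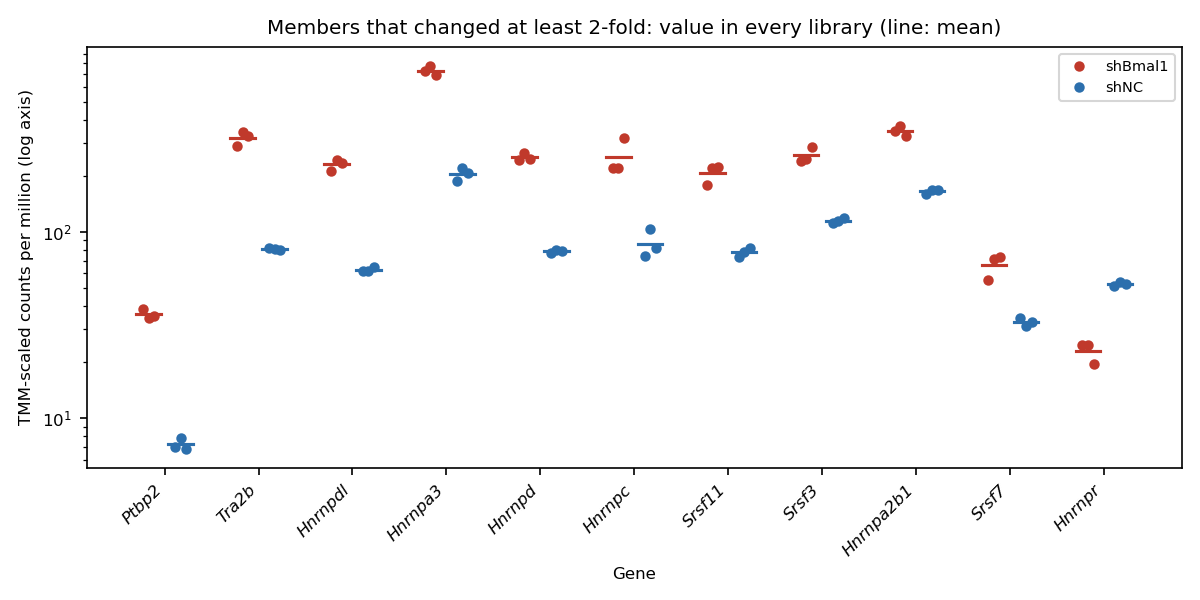
TMM-scaled CPM (log axis) in every library for the 11 genes that passed the test with a change of at least 2-fold, shBmal1 in red and shNC in blue, with lines at the group means. The groups do not overlap for any of the 11 genes, and Hnrnpr is the 1 gene with shBmal1 below shNC.

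All 6 genes of the hnRNP A/B and D types in the set rose, 4 of them at least 2-fold. These proteins share a pair of RNA recognition motifs followed by a glycine-rich tail. On the TPM scale Hnrnpa1 did not pass (log2 fold change 0.01). The hnRNP A0 gene, outside the set by its symbol LOC681410, had a log2 fold change of −0.66 and is described below. Hnrnpa3, an A2-related protein, was the most abundant of all 36 transcripts per length. It had 725, 774 and 693 CPM in shBmal1, against 188, 220.5 and 208 CPM in shNC, a 3.56-fold rise (log2 fold change 1.83 ± 0.08; adjusted p = 4.79e-07, edgeR). Hnrnpa2b1, whose product packages nascent RNA and sorts microRNAs, had 348, 370 and 326 CPM in shBmal1 and 160, 168 and 168 CPM in shNC (1.07 ± 0.07; adjusted p = 2.93e-06, edgeR). Hnrnpa1, a well-studied silencer of exons and antagonist of SRSF1, rose by only 0.38 ± 0.07 on the same scale (adjusted p = 0.00141, edgeR).

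Hnrnpd encodes AUF1, which binds AU-rich elements and in mouse is known to shorten the life of Cry1 mRNA, and Hnrnpdl encodes its close relative. Hnrnpd had 244, 266 and 247 CPM in shBmal1, against 77.1, 80.4 and 79.2 CPM in shNC (log2 fold change 1.68 ± 0.06; adjusted p = 2.54e-07, edgeR). Hnrnpdl had 212, 244 and 235 CPM in shBmal1, against 61.5, 61.9 and 64.6 CPM in shNC (1.88 ± 0.07; adjusted p = 3.03e-07, edgeR). The control libraries of both genes lay within a few CPM of each other, far below any shBmal1 library. The 2 genes are neighbours in the same orientation on chromosome 14, at 11198896 to 11202669 for Hnrnpdl and 11256268 to 11274578 for Hnrnpd in the coordinates of the deposited table, for which no build is named. The gap between them is 53.6 kb. Of the other neighbouring pairs, Hnrnpll and Srsf7 on chromosome 6, 151 kb apart, had log2 fold changes of 0.54 and 1.01, Srsf10 and Hnrnpr on chromosome 5, 454 kb apart, 0.82 and −1.19, and Hnrnph1 and Hnrnpab on chromosome 10, 909 kb apart, −0.36 and 0.94.

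Hnrnpc and Hnrnpab both rose, and for each the table lists a similar locus; how reads were divided between gene and copy was not tested. Hnrnpc, which encodes a protein that binds uridine tracts and shields cryptic exons, had 221, 220.1 and 319 CPM in shBmal1 and 74.1, 103.5 and 81.8 CPM in shNC (log2 fold change 1.55 ± 0.18; adjusted p = 0.000104, edgeR). Hnrnpab, a factor of RNA transport and editing, had 307, 260.1 and 438 CPM in shBmal1 and 180.1, 155 and 189 CPM in shNC (0.94 ± 0.18; adjusted p = 0.00194, edgeR). The table lists LOC100911576 as similar to hnRNP C and LOC103689931 as hnRNP A/B. The copy of Hnrnpab had 16.8, 237 and 0.828 CPM in shBmal1 and 108, 136 and 0 CPM in shNC, with values near 0 and above 100 within each group. The copy of Hnrnpc had 9.05, 159 and 61.2 CPM in shBmal1 and 51.9, 44.6 and 58.6 CPM in shNC. With each gene summed with its copy, a step added after the data had been seen, the log2 fold change was 1.26 ± 0.18 for Hnrnpc (adjusted p = 0.000416, edgeR) and 0.71 ± 0.20 for Hnrnpab (0.0125). The same summing gave 0.85 for Hnrnpk, 1.78 for Hnrnpa3 and −1.05 for Hnrnpr, and no call was lost. Some genes also overlap another gene, and without a stated strand setting their reads cannot be told apart: Ptbp3 had 705, 832 and 817 counts in shBmal1 and 1772, 1820 and 1729 in shNC, while an overlapping locus on the opposite strand had 400, 833 and 708 in shBmal1 and 563, 587 and 590 in shNC. The overlapping partners of Hnrnpab, Hnrnph3 and Ptbp1 had at most 244, 217 and 115 counts in any library.

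**Figure D3:**
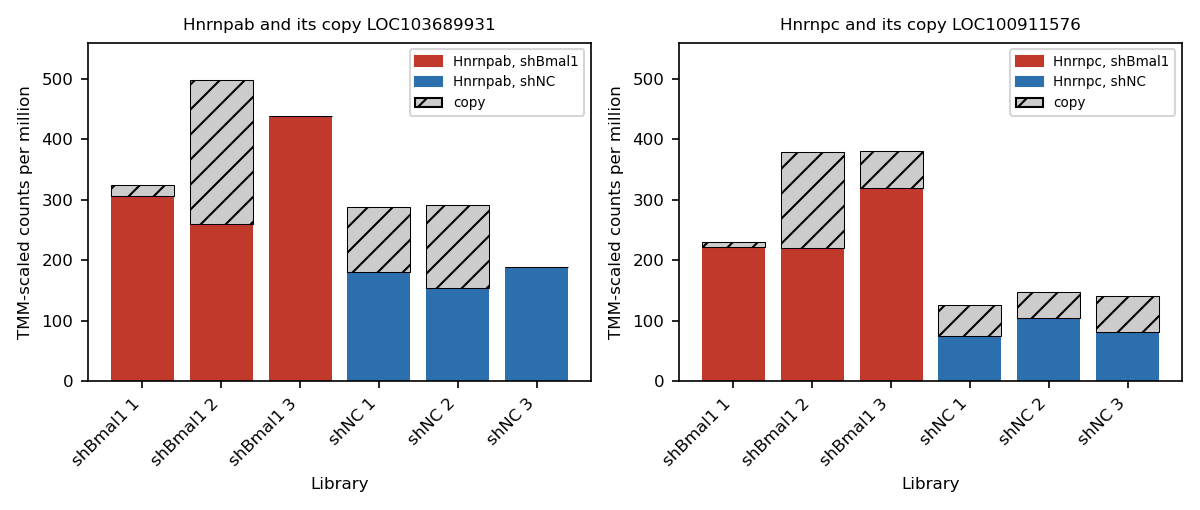
TMM-scaled CPM of Hnrnpab (left) and Hnrnpc (right) in each library, with the locus that the table describes as a similar copy stacked on top (hatched). The copy of Hnrnpab ranges from 0.828 to 237 in shBmal1 and from 0 to 136 in shNC.

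Of the abundant hnRNPs, K, U, F and M rose moderately. Hnrnpl and Hnrnpul2, with 91.6 and 78.1 FPKM in shNC against 75.5 for Hnrnpf, did not rise and are described below. Hnrnpk, which binds cytidine-rich sequence in RNA and DNA, had 646, 674 and 611 CPM in shBmal1, against 359, 359 and 384 CPM in shNC (log2 fold change 0.81 ± 0.06; adjusted p = 1.02e-05, edgeR). Hnrnpu, the scaffold attachment factor of chromatin, had 654, 671 and 619.9 CPM in shBmal1, against 413, 423 and 402 CPM in shNC (0.65 ± 0.06; adjusted p = 2.07e-05, edgeR). The groups of both genes were well apart. Hnrnpf, which binds runs of guanosine, had 394, 398 and 348 CPM in shBmal1, against 192, 193 and 192 CPM in shNC (0.98 ± 0.07; adjusted p = 5.62e-06, edgeR). Its relatives Hnrnph2 and Hnrnph3 rose by 0.82 and 0.58 on the log2 scale, while Hnrnph1 fell by 0.36. Hnrnpm, a GU-rich RNA binder, had 191, 200.5 and 192 CPM in shBmal1, against 143, 149 and 132 CPM in shNC (0.46 ± 0.07; adjusted p = 0.000396, edgeR).

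The PTB proteins bind pyrimidine-rich tracts and mostly repress exons. In mouse neurons a decline of Ptbp1 is known to release Ptbp2 from unproductive splicing. Here both transcripts rose. Ptbp2 showed the largest change of the 35 genes, with 38.6, 34.4 and 35.4 CPM in shBmal1 against 7.00, 7.86 and 6.89 CPM in shNC, a 4.98-fold rise (log2 fold change 2.32 ± 0.12; adjusted p = 1.10e-06, edgeR). Ptbp1 had 435, 445 and 446 CPM in shBmal1, against 294, 275 and 289 CPM in shNC (0.63 ± 0.05; adjusted p = 2.11e-05, edgeR). Ptbp3 rose by 0.82 and Hnrnpll, a regulator of CD45 splicing in lymphocytes, by 0.54. The 7 neuron markers summed to 5.63 to 9.59 CPM in shBmal1 and 7.60 to 8.19 CPM in shNC, with Snap25, Rbfox3 and Elavl3 at 0 in every library.

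The genes that fell were spread over the role groups: Hnrnpr, Hnrnpul1, Srsf9, Hnrnpl and Hnrnph1. Hnrnpr, best known for axonal RNA transport and for its kinship to SYNCRIP, fell most. It had 24.9, 24.7 and 19.5 CPM in shBmal1, against 51.2, 53.7 and 52.3 CPM in shNC (log2 fold change −1.19 ± 0.11; adjusted p = 3.34e-05, edgeR). Hnrnpul1, a relative of Hnrnpu with a role in DNA repair, had a log2 fold change of −0.55 ± 0.08 (adjusted p = 0.000345, edgeR), and Hnrnpl, which binds CA repeats, one of −0.47 ± 0.06 (0.000179). Hnrnpul2 had 183, 185 and 211 CPM in shBmal1 and 215, 223 and 213 CPM in shNC, and at −0.17 ± 0.07 it narrowly missed the threshold (adjusted p = 0.0654, edgeR). It passed as lower without shBmal1 replicate 3 (0.0056), without a filter on low counts (0.0249) and with a gene length correction (0.0135). The gene LOC681410, which the table describes as hnRNP A0 but whose symbol kept it out of the set, had 79.5, 84.4 and 82.4 CPM in shBmal1 against 134, 127 and 129.8 CPM in shNC (−0.66 ± 0.06; adjusted p = 3.09e-05, edgeR), unlike the 6 rising A/B and D genes. Raly, also described as an hnRNP and outside the set, fell too (−0.33 ± 0.06, adjusted p = 0.00108, edgeR). Of the similar copies outside the set, those of Hnrnpk and Hnrnpa3 rose (1.34 and 0.72) and that of Hnrnpr fell (−0.60). Those of Hnrnpab and Hnrnpc did not pass.

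Because the family as a whole took a larger part of the libraries, its internal make-up was also compared. The 36 genes took 0.745, 0.779 and 0.78% of all counts in shBmal1, against 0.399, 0.413 and 0.411% in shNC. Their summed FPKM was 3559 ± 128 in shBmal1 and 1808 ± 44.1 in shNC (SD, n = 3 each), 1.97-fold higher in shBmal1 (exact two-sided permutation test, p = 0.1, the smallest that 3 against 3 libraries allow). Summed FPKM of all genes was itself 1.4-fold higher in shBmal1, and on the TPM scale, where that total is equal, the ratio was 1.41. Summed FPKM of the hnRNP A/B and D genes was 1543 ± 46.6 in shBmal1 against 563 ± 23.1 in shNC, 2.74-fold higher, while that of the SR proteins was 538 ± 42.6 in shBmal1 against 358.5 ± 9.27 in shNC, or 1.5-fold higher, and that of the hnRNP U group 287 ± 5.10 in shBmal1 against 232 ± 4.22 in shNC, or 1.24-fold higher. The TPM ratios of these groups were 1.96 for hnRNP A/B and D and 1.08 for the SR proteins, whose libraries overlapped, while the hnRNP U group turned round to 0.885. The hnRNP L and PTB group (FPKM ratio 1.32, TPM ratio 0.947) and the hnRNP M and R group (1.25 and 0.892) also changed direction with the scale.

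The share of each gene in the summed FPKM does not depend on how libraries are scaled. Hnrnpa3 made up 16.8 to 18.5% of it in shBmal1 and 8.54 to 9.68% in shNC, and ranked first of the 36 genes in both groups. Hnrnpa2b1 and Hnrnpk came next, in that order, in both. Below them the order changed. Tra2b ranked 7th in shBmal1 and 19th in shNC, Hnrnpd 8th and 17th, Hnrnpc 9th and 16th, and Hnrnpdl 12th and 23rd. Hnrnpl ranked 17th in shBmal1 and 6th in shNC, Hnrnpul2 16th and 8th, Hnrnpul1 25th and 15th, and Srsf9 22nd and 14th. The 3 most abundant genes held 32.2 to 34.8% of the summed FPKM in shBmal1 and 23.2 to 24.5% in shNC. Levels per length rest on the annotated lengths, which the counts and FPKM imply to be 1190.5 bases for Hnrnpa3 and 1112 for Hnrnpa2b1 but 5526 for Srsf3.

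**Figure D4:**
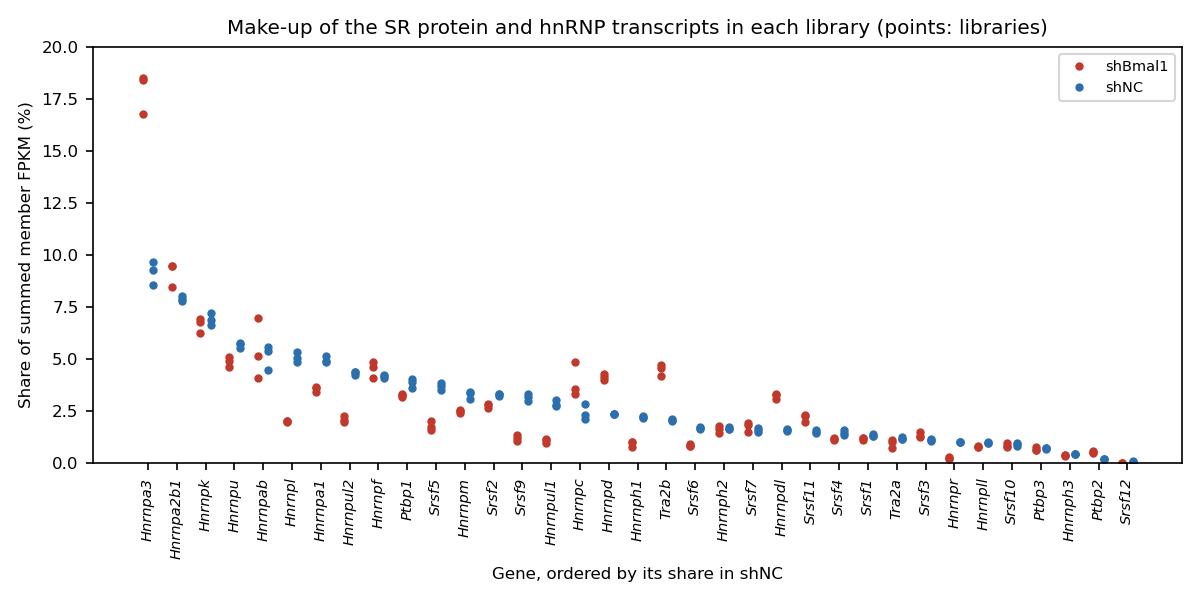
Share of each gene in the summed FPKM of the set (percent), one point per library, shBmal1 in red and shNC in blue, with genes ordered by their share in shNC and Srsf8, at 0 counts, left out. Hnrnpa3 lies at 16.8 to 18.5% in shBmal1 against 8.54 to 9.68% in shNC, and Tra2b, Hnrnpd and Hnrnpdl also gained share while Hnrnpl, Hnrnpul2 and Srsf9 lost it.

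Ratios between genes of the same role group within a library are free of library scaling. The pairs were chosen after their values were seen, so they are given as a description with no test. The Ptbp2 to Ptbp1 ratio of FPKM was 0.176, 0.153 and 0.158 in shBmal1, against 0.0473, 0.0568 and 0.0473 in shNC, 3.22-fold higher. Ptbp1 nevertheless remained the predominant form in every library. The Tra2b to Tra2a ratio was 5.67, 4.70 and 4.09 in shBmal1, against 1.68, 1.76 and 1.78 in shNC. The Hnrnpa3 to Hnrnpa1 ratio was 5.40, 5.14 and 4.61 in shBmal1, against 1.74, 1.88 and 1.91 in shNC, and the Hnrnpr to Hnrnpm ratio 0.108, 0.102 and 0.0843 in shBmal1, against 0.297, 0.299 and 0.329 in shNC.

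Genes that act with the SR proteins and hnRNPs moved unevenly from list to list. Over all tested genes, 36.0% rose and 35.3% fell. Among kinases of the CLK family, which phosphorylate RS domains in the nucleus, 3 rose strongly: Clk4 to 38.8 ± 4.93 CPM in shBmal1 against 6.29 ± 0.13 CPM in shNC (log2 fold change 2.63), Clk1 to 263 ± 43.7 in shBmal1 against 46.3 ± 2.22 CPM in shNC (2.50) and Clk3 to 112 ± 12.0 in shBmal1 against 28.7 ± 2.43 CPM in shNC (1.96), SD with n = 3 each. Srpk2, a kinase that phosphorylates SR proteins in the cytoplasm, fell to 24.8 ± 2.85 CPM in shBmal1 against 56.2 ± 2.65 CPM in shNC (−1.18). Srpk1 of the same list did not fall, at 57.1 ± 5.94 CPM in shBmal1 against 43.8 ± 9.50 CPM in shNC. Its log2 fold change of 0.38 did not pass (adjusted p = 0.0717, edgeR). The phosphatase subunit gene Ppp1cb fell to 71.0 ± 5.62 CPM in shBmal1 against 139 ± 4.24 CPM in shNC (−0.97). In all, 4 of 10 tested kinase and phosphatase genes rose and 4 fell, the other falls being Ppp1ca (−0.53) and Ppp1cc (−0.68). Of 22 RS-domain coactivators and junction proteins, 16 rose (72.7%) and 4 fell (18.2%), with a median of 0.60. Among these, Son, a core protein of nuclear speckles, rose by 1.64 on the log2 scale, Luc7l3 by 1.95 and Zranb2 by 1.77.

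Import, export and exon junction genes rose in 9 of 11 cases (81.8%) and fell in 2 (18.2%), with a median of 1.67. The mRNA export receptor Nxf1 stood at 276 ± 21.9 CPM in shBmal1 and 66.2 ± 3.19 CPM in shNC (log2 fold change 2.06), and its adaptor Alyref rose by 2.09, the exportin gene Xpo1 by 2.07 and the junction complex gene Rbm8a by 2.44. Tnpo3, the importin that carries SR proteins into the nucleus, rose by 0.35 and Tnpo1, which carries hnRNP A1, by 0.16. Of 34 tested members of other splicing regulator families, 16 rose (47.1%) and 12 fell (35.3%), with a median of 0.24. The shares over all tested genes were 36.0% and 35.3%. Tardbp rose by 2.33 on the log2 scale, whereas Mbnl1 fell to 61.1 ± 3.59 CPM in shBmal1 against 443 ± 21.2 CPM in shNC (−2.86), and Mbnl2 (−1.41) and Nono (−1.41) fell as well. Of 14 tested entries of nonsense-mediated decay factors, 4 were higher (28.6%), 3 lower (21.4%) and 7 did not pass. The shares over all genes were 36.0% and 35.3%, and in so short a list the difference was not tested. One entry, a second row of Ncbp2, had 0, 402 and 259 counts in shBmal1 and 0, 712 and 0 in shNC. Smg1 (1.62) and Smg8 (1.55) rose, and Smg6 (−1.12) fell.

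Core spliceosome components, the list most like this one, were taken by symbol alone (Snrp, Snrnp, Sf3a, Sf3b, Prpf, Lsm and U2af). Such a rule may take in genes outside the core, among them some Lsm genes. Entries of this list rose in 39 of 57 tested cases (68.4%) and fell in 6 (10.5%), with a median of 0.84. The corresponding values of the SR proteins and hnRNPs were 74.3%, 14.3% and 0.65, so these counts do not set the regulators apart from the core machinery, and no test of the difference was made. All values in these lists come from the same edgeR fit, and the genes named, apart from Srpk1, had adjusted p-values of at most 0.042.

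**Figure D5:**
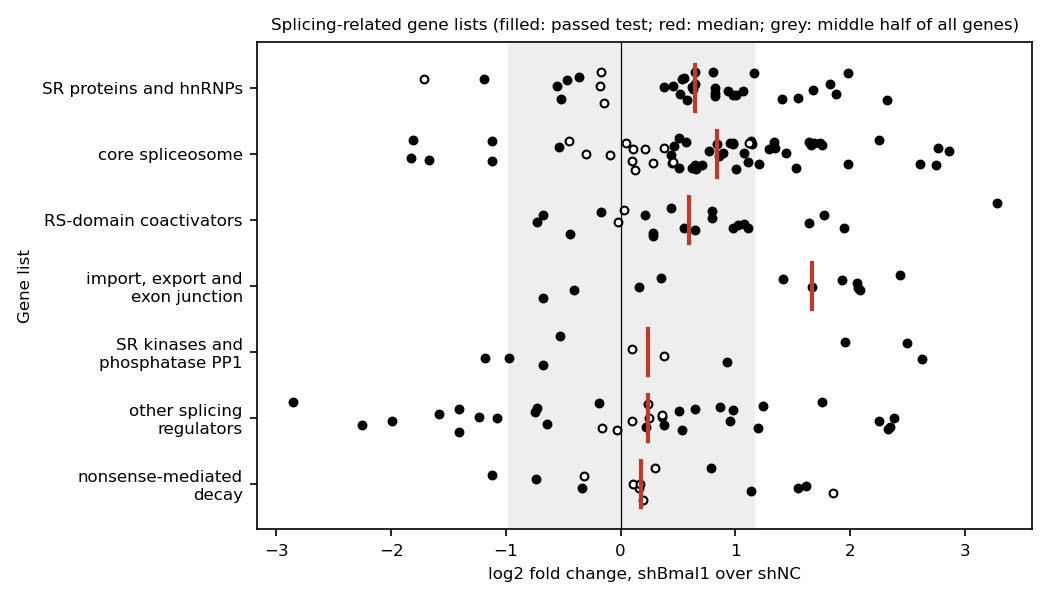
Log2 fold change, shBmal1 over shNC, of every tested gene in 7 splicing-related lists, filled where the edgeR test was passed, with red lines at the list medians and a grey band over the quartiles of all tested genes (−0.97 to 1.16). The medians run from 0.18 for nonsense-mediated decay to 1.67 for import, export and exon junction genes, and the SR proteins and hnRNPs lie at 0.65.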

How the data were processed

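Raw read counts and FPKM per gene were deposited by the authors in 1 table, per the file headers. StringTie 1.3.4d, HISAT2 2.0.4, cutadapt 1.9, DESeq2 and edgeR appear in the submitters' processing notes, with no role; no build, annotation release, counting program or strand setting is named. The authors' FPKM list genes with no count at 1e-04. Per the labels, RNA was poly(A)-selected.

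Groups came from sample titles. After filterByExpr (at least 10 counts, 15 in total) and TMM scaling, the quasi-likelihood test of edgeR 4.0.16 in R 4.3.3 compared the groups, unblocked; adjusted p-values (Benjamini-Hochberg, threshold 0.05) span all 14342 genes tested. SE is the log2 fold change divided by the root of the F statistic. The biological coefficient of variation was 0.213. The floor is 3 counts per library and covers counting error only. No 2 libraries of a group were duplicates (chi-square divided by degrees of freedom 11.2 to 25.2). The procedure was tested on simulated counts in which few genes changed and all shared a common dispersion. In the data 71.3% of genes passed, so that simulation does not test the scaling under so broad a change. TPM alternatives used limma 3.58.1 on log2(TPM + 1) or log2(TPM + 0.1). Others were relative log expression and upper-quartile scaling, DESeq2 1.42.0, no filter, thinned shNC counts, omission of the 50 most abundant genes, a length correction, a replicate block and omission of each library. Values per library are given for called genes with a change of at least 2-fold, the gene with the highest mean FPKM per role group, and genes with an absolute log2 fold change under 0.2. Tra2a, Srsf9, Srsf12, Hnrnpab and LOC681410 were added after their values were seen, as was the fold change of Raly. Up to 4 genes with the smallest p were named per partner list, plus Tnpo3, Tnpo1, Srpk1, Srpk2, Ppp1ca and Ppp1cc, added after their values were seen. Some genes that this rule would name are not reported here. Members and lists were chosen with earlier results of these data known. Promoters are RefSeq's (GRCr8), matched by symbol. The symbols Ncbp2 and Lsm5 each occur in 2 rows.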

Additional observations from a re-analysis of the deposited data

How the results depend on the processing

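Of the 35 tested genes, 30 kept their direction and their side of the threshold in all 15 alternatives on counts, and 25 in all 18 alternatives, TPM included. The exceptions on counts were Tra2a, Srsf5, Srsf6, Srsf12 and Hnrnpul2. Srsf6, which did not pass, turned to 0.08 with the gene length correction. The number of rises was 25 to 26 when 1 library was left out and 20 with TPM at either pseudocount, and 24 with TPM over protein-coding genes, an alternative chosen after seeing the data; falls were 5 to 8 with 1 library left out and 9 with TPM, at either pseudocount and also over protein-coding genes. The median log2 fold change was 0.71 with relative log expression scaling and with DESeq2, 0.57 without a filter (0.31 over all genes then kept), 0.72 with shNC thinned to the depth of shBmal1, 0.77 with the length correction, 0.27 and 0.28 with TPM at pseudocounts of 1 and 0.1, 0.38 with TPM over protein-coding genes, and 0.59 to 0.67 with 1 library left out. The summed FPKM ratio of 1.97 became 1.41 with TPM. The sum of FPKM over all genes was higher in shBmal1 than in shNC, which by construction lowers TPM there. Libraries with the same replicate number showed no shared deviation from their group means (correlations −0.0705, −0.00258 and 0.0203). Libraries with unlike numbers gave −0.0831 to 0.0815. With 3 libraries per group this check cannot exclude that same-numbered libraries shared a rat or a batch. With the replicate block, 26 of the 35 genes rose and 5 fell, as without it, and 9415 genes passed in all, against 10233. Srsf12 had 0, 29 and 11 counts in the shBmal1 libraries, and it passed as lower without shBmal1 replicate 1 or replicate 2; the part of depth and of spread between libraries in this was not tested.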

Other observations

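Some of these genes start next to another gene that is transcribed in the opposite direction. Srsf11 rose by 1.41 on the log2 scale and its partner Lrrc40, whose start lies 86 bases away, by 0.92 (adjusted p = 0.00179, edgeR). Srsf2 rose by 0.62 and Mfsd11, 722 bases away, by 0.39 (0.00547). Hnrnpdl rose by 1.88, whereas Enoph1, 702 bases away, had a log2 fold change of −2.18 (0.000555).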
